A study of Mus musculus with 4 samples.

Results

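Transforming growth factor beta (TGF-beta) and bone morphogenetic protein (BMP) signalling was examined in a pigmented and a non-pigmented line of cultured mouse melanocytes, the pigment cells of the skin. The 52 genes were taken by symbol: the TGF-beta, BMP, growth differentiation factor (Gdf) and inhibin beta ligands, their receptors, the Smad genes, the Id genes, and the secreted antagonists Nog, Grem1, Chrd and Fst. They were read by 108 of the 34945 probe sets that carried a single gene symbol, and made up 52 of 18193 genes. Both lines came from Balb/c skin and were grown in medium with serum, 2-mercaptoethanol and the phorbol ester TPA. The non-pigmented line carries a homozygous point mutation of Tyr, the gene of tyrosinase, which starts melanin synthesis. In the pigmented line the same mutation has been corrected, and the labels call it wild type. Each line was measured on 2 Affymetrix mouse arrays, 4 arrays in all. A group is therefore a single line, so the genotype and any other difference between the lines cannot be told apart. Nothing in the labels says that the arrays of a line come from separate cultures, so a p-value here covers only the spread between these arrays, which may be technical.

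Ligands of this superfamily bring together type I and type II receptor kinases at the cell surface. The type I receptor phosphorylates Smad2 and Smad3 after TGF-beta or activin, and Smad1, Smad5 and Smad9 after BMP, and these enter the nucleus with Smad4. Smad6 and Smad7 inhibit the pathway, and the Id genes, which encode helix-loop-helix proteins that hold E proteins off DNA, are direct targets of BMP signalling. In cultured melanocytes TGF-beta is known to lower Mitf and tyrosinase.

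Values are probe set intensities, scaled by the authors to a common level on each array. Each gene was represented by its brightest probe set, and the comparison was made on log2(signal + 16), pigmented minus non-pigmented, with limma over all genes. Errors beside a difference are standard errors (SE). A gene was called at a Benjamini-Hochberg adjusted p under 0.05. Genes with a mean log2 value under 6.44, a signal of 70.7, were not tested, which left 39 of the 52 genes and 12558 genes in all. Signals in sentences below are given for non-pigmented replicates 1 and 2 and then for pigmented replicates 1 and 2, unless stated otherwise. The median signal of an array lay between 99.7 and 130. Replicate 2 of both lines had lost 5′ signal of the Gapdh control transcript (3′ to 5′ ratios of 20.2 and 16.8, against 0.903 and 0.864 in replicate 1 of both), so differences are also given within each of these RNA integrity pairs, and adjusted p-values also from a fit with the pair as a block (the integrity-blocked fit). The titles carry 2 dates that divide the arrays in another way, with 1 array of each line on either date. Either date also holds 1 array of each integrity pair. With the pair as a block, only the date contrast is left to estimate a gene's own error, before limma shares information over genes. With the date as a block, only the pair contrast is left. The pair and the date therefore cannot be adjusted for together, and each blocked fit counts the other factor as error.

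The labelled cell type was checked against marker genes. The 11 melanocyte markers had a summed signal of 15627 and 26839 on the non-pigmented arrays and of 141731 and 133261 on the pigmented arrays, and all 11 were higher on both pigmented arrays, 8 of them called by limma. Sox10, a neural crest factor, had signals of 8268, 8558, 8602 and 10232, whereas those of Kit (62.4 and 72.1) and Ednrb (16.3 and 12.0) on the non-pigmented arrays were near or below the filter. The 10 Schwann cell and progenitor markers summed to 22858 and 27977 in the non-pigmented and to 3222 and 4189 in the pigmented line, and of 9 tested 7 had a lower mean in the latter, 5 of them called. Foxd3 and Mal had higher means there (differences of 1.95 and 1.76) and were not called. Sums of the 7 muscle and pericyte markers were 13376 and 8764 against 3873 and 1704. Most of these sums came from Mcam (7795, 6609, 2719 and 684) and Acta2 (3674, 1647, 644 and 603). All 6 tested had a lower mean in the pigmented line, none called, and Des (103, 101, 101 and 70.9) differed little. Myh11, not tested, was higher on both pigmented arrays (53.3, 7.43, 116 and 106). The keratinocyte (600 to 1051), fibroblast (1004 to 1803), immune (1359 to 3153) and endothelial (320 to 502) sums were given by 10, 10, 8 and 5 genes, and only Krt10 among them was called. Krt10 (306, 264, 8.84 and 39.4) had a pigmented mean under the filter level, as had Sox2 and Nes among the called Schwann cell and progenitor markers. Kit and Ednrb, both called, had a non-pigmented mean under it. These called genes were tested only because the line where they were high lifted the mean over the filter. No marker has a zero on this scale. These values move with the results that follow, and their part in them was not tested.

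In the probe set used for each gene, the Id and Smad families divided between members that were higher on both pigmented arrays (Id2, Id4, Smad3, Smad5, Smad6) and others that were not, such as Id3. Of all tested genes 24.4% were higher on both. A further probe set above the filter of Smad1, of Smad2 and of Smad4 was also higher on both, and the other probe sets of Smad3 had the opposite sign. Promoters of 5 Id and Smad genes (Id2, Id4, Id3, Smad5, Smad6) were chosen by the values of the probe sets used and are shown. Each is a window of 300 bases around a RefSeq transcript start, mostly upstream of it, on the GRCm38.p6 build, and is written 5′ to 3′ on the strand of the gene. Capitals mark GGCGCC and CAGAC on either strand, both known as Smad-binding elements, and the E-boxes that Mitf can bind, CACGTG or the variant CATGTG, would be marked likewise. No window shown holds 2 different motifs.
Id2, chr12:25096043-25096342, minus strand: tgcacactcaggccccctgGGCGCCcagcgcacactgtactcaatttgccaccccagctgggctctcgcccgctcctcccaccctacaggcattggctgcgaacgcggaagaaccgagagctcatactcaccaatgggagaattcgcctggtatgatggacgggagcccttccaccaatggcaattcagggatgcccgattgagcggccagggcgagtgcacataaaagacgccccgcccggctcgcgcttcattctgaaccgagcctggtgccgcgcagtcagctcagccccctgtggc
Id4, chr13:48260866-48261165, plus strand: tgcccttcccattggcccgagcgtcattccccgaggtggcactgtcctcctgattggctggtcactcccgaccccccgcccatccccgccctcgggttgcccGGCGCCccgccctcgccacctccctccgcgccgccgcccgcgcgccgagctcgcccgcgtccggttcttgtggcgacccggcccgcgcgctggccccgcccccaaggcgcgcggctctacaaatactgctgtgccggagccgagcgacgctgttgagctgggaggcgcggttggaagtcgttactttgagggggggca
Id3, chr4:136143572-136143871, plus strand: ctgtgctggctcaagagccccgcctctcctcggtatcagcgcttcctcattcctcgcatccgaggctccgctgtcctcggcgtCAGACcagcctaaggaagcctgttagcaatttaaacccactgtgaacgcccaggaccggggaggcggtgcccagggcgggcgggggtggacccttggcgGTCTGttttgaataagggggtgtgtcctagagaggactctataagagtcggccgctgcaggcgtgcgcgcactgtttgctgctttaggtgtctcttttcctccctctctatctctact
Smad5, chr13:56702760-56703059, plus strand: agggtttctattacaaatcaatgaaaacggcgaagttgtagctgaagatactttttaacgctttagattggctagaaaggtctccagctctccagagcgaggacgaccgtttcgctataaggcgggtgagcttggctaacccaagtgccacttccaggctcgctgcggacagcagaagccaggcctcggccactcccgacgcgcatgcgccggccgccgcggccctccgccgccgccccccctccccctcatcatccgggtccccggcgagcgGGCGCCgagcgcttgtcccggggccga
Smad6, chr9:64022010-64022309, minus strand: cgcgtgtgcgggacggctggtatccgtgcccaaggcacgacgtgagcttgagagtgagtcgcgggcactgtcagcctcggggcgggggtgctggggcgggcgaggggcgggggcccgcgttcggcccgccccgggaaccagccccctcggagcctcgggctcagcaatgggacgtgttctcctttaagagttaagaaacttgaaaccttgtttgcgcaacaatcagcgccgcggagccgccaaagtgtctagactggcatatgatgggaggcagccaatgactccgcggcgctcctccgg

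The windows of Id2, Id4 and Smad5 shown each held 1 GGCGCC and no CAGAC, that of Id3 held 2 CAGAC and no GGCGCC, and that of Smad6 held none of the 4 motifs. Smad5 has 3 windows in the table, and of the 2 not shown, 1 held 1 GGCGCC and no CAGAC and the other 1 CAGAC and no GGCGCC. The windows of Smad3 and Smad1 held none of the 4 motifs. In the probe sets used, Smad3 was also higher on both pigmented arrays and the lines of Smad1 overlapped. The window of Smad9, whose lines overlapped, held 1 GGCGCC. The windows shown are therefore no guide to the rest of the families. Of all 32851 promoter windows, searched on both strands, 11.9% held GGCGCC, 49.6% CAGAC, 7.15% CACGTG and 14.2% CATGTG. Of the 43 windows found for 37 of the 52 genes, 13 held GGCGCC, 18 CAGAC, 4 CACGTG and 0 CATGTG. Bmp1, Fst and 13 other genes had no entry in the promoter table. A match describes the letters of the window and is no evidence of binding.

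**Figure D1:**
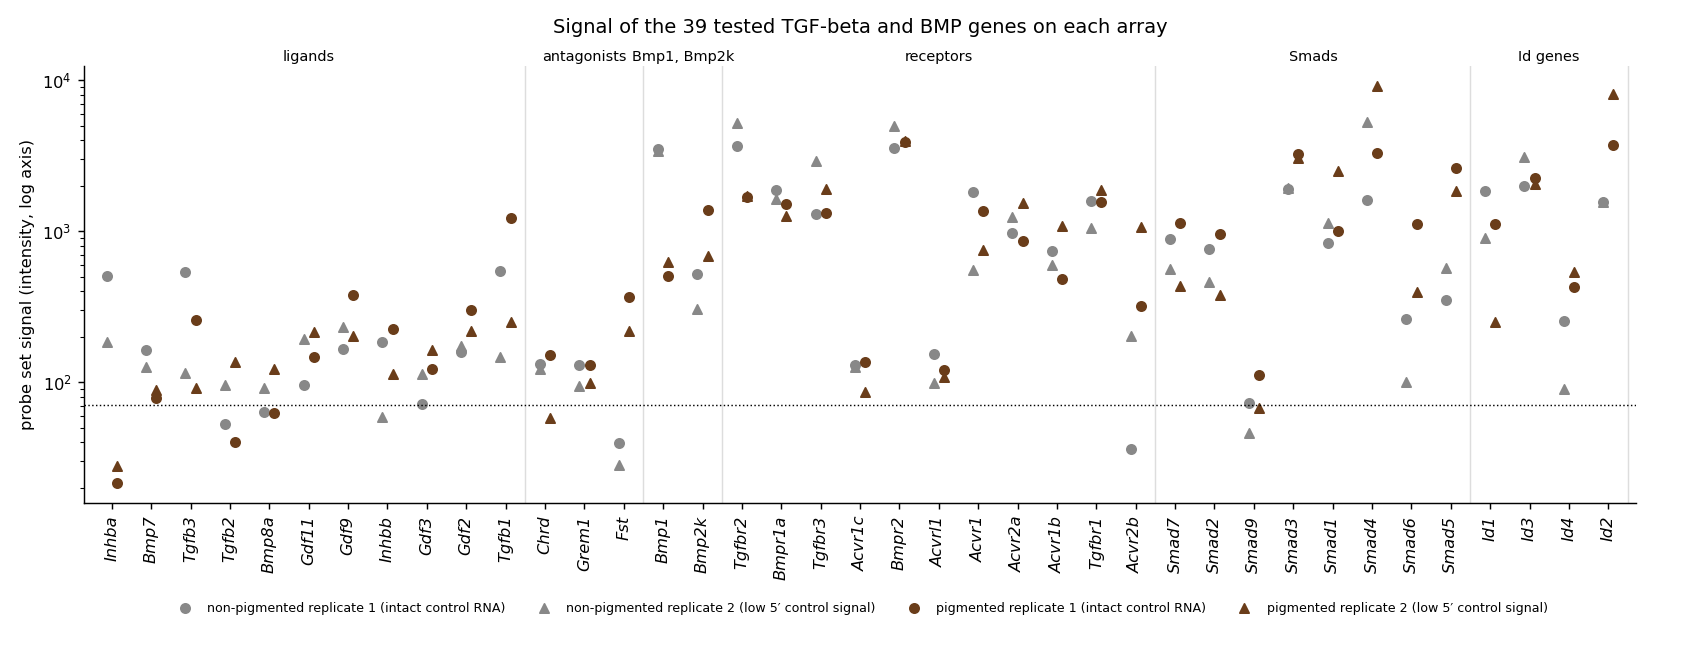
Signal (intensity, log axis) of the 39 tested genes on each of the 4 arrays, ordered by role and, within a role, by difference. Grey marks are non-pigmented and brown marks pigmented arrays, circles replicate 1 and triangles replicate 2, and the dotted line is the filter level of 70.7. Fst, Bmp1 and Inhba show the lines far apart, and in Tgfb1, Tgfb3 and Smad4 the marks divide by shape rather than by colour.

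Over the whole set, 2 of the 39 tested genes passed limma, while 3.36% of all tested genes did. Of the 2, Fst was higher in the pigmented line, as were 1.33% of all genes, and Bmp1 was lower, as were 2.03%. An unadjusted p under 0.05 was reached by 9 of the 39 (23.1%), against 13.8% of all genes. The 9 were 6 higher (6.25% of all genes) and 3 lower (7.56% of all genes). The 2 lines did not overlap in 15 of the 39 (38.5%), a share near the 43.9% of all genes. In 10 of the 15 the pigmented arrays were higher (24.4% of all genes) and in 5 lower (19.5% of all genes). Differences of at least 1 on the log2 scale, in either direction, were found for 11 genes (28.2%, against 20.2%). The median difference was 0.12 and that of all genes 0.07, and with arrays centred on their medians, which shifted the median difference of all genes by -0.24, the former was -0.13. In the integrity-blocked fit 8 of the 39 passed, against 7.04% of all genes, 5 of them higher (2.72% of all genes) and 3 lower (4.32% of all genes). With the title date as a block 1 of the 39 passed, against 3.12% of all genes. That gene was Inhba, and neither Fst nor Bmp1 passed. Since each blocked fit counts the other factor as error, neither count is adjusted for both the pair and the date. Fst is among the 2 called genes, and Fst and Inhba are both in the counts of 9, 15, 11 and 8 genes. Each of them passed the filter only through the line where it was high. The direction was the same in both integrity pairs for 23 of the 39 (69.4% of all genes) and on both dates for 17 (50.8% of all genes). With 2 arrays per line an exact two-sided permutation test of a single gene cannot go below 0.333, so the calls draw on the spread estimated over all genes.

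**Figure D2:**
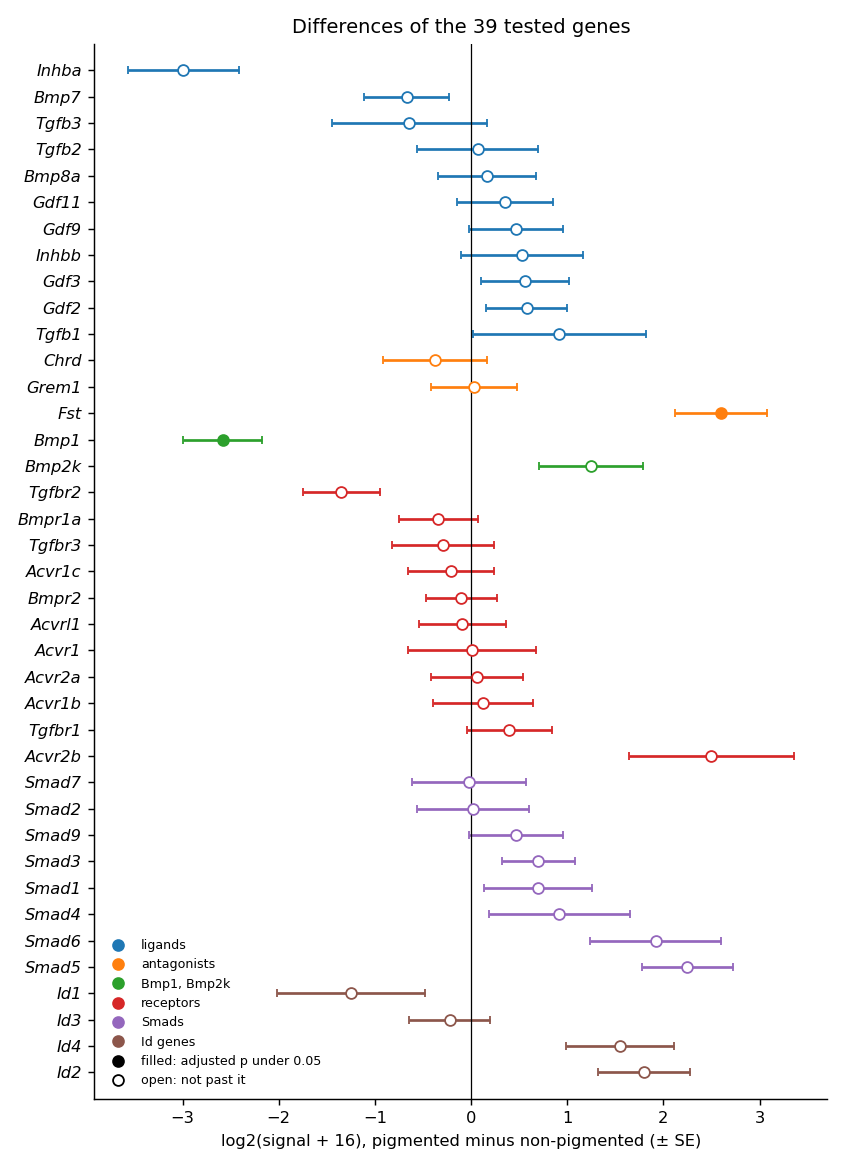
Difference in log2(signal + 16), pigmented minus non-pigmented, of the 39 tested genes, with bars of 1 SE from limma. Filled points mark the 2 called genes, Fst at 2.60 and Bmp1 at -2.58, and colours mark the role of the gene.

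Fst encodes follistatin, which binds activin and some BMPs and keeps them from their receptors. Its signal was 39.3 and 28.2 on the non-pigmented arrays and 368 and 219 on the pigmented arrays. Both pigmented values lay well above both non-pigmented ones, which were under the filter level. On the log2 scale the non-pigmented line averaged 5.63 ± 0.23 (SD, n = 2) and the pigmented line 8.23 ± 0.50 (SD, n = 2), and Fst rose by 2.60 ± 0.48 on the log2(signal + 16) scale (limma, adjusted p of 0.0455). Fst was tested only because its pigmented signal lifted the mean over the filter, it was not tested with the filter at the 60th percentile, and its non-pigmented level cannot be told from background, so no fold is given. A second, dimmer probe set had signals of 7.52, 3.65, 361 and 69.4 and a difference of 3.06. Since the non-pigmented signal was dim, the size varied with the pseudocount, from 3.05 with 1 to 1.84 with 64. The call was close to the threshold: the adjusted p was 0.117 without non-pigmented replicate 1, 0.170 without non-pigmented replicate 2, 0.0702 without pigmented replicate 1 and 0.0215 without pigmented replicate 2, and Fst was called in 5 of its 15 alternative fits. As this is bulk RNA, a change in the number of cells that express a gene and a change in RNA per cell cannot be told apart, here and for every gene below.

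The other antagonists gave no such difference. Chrd, which encodes chordin, a BMP-binding protein, had signals of 133, 122, 151 and 58.3. Grem1, another BMP antagonist, had 130, 94.9, 130 and 99.2. In both genes the lines overlapped, and Nog, which encodes noggin, was too dim to be tested (5.22 to 17.3).

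Bmp1 carries the BMP name but encodes a metalloprotease, which trims procollagens and can cleave chordin. Its signal was 3498 and 3385 in the non-pigmented line and 508 and 624 in the pigmented line. Values within a line were close together, and the lines lay far apart. Bmp1 fell by 2.58 ± 0.41, or 5.97-fold (limma, adjusted p of 0.0286), from a mean log2 value of 11.76 ± 0.03 (SD, n = 2) to 9.18 ± 0.20 (SD, n = 2). It was lower by a similar amount in the intact pair (-2.74) and in the pair with low 5′ signal (-2.41). Its other probe sets were much dimmer. One of these read 574, 53.4, 67.9 and 5.12, with a difference of -2.27, and the other 96.3, 53.7, 87.9 and 71.0, with a difference of 0.10. The adjusted p was 0.146 without non-pigmented replicate 1 and 0.147 without non-pigmented replicate 2, 0.0894 with the title date as a block, 0.0503 with each probe set tested on its own and 0.252 (difference -1.58) with the mean of the 3 probe sets. Bmp2k, a kinase gene named for its induction by BMP2, read 520, 305, 1383 and 683. Its lines did not overlap, but the difference of 1.25 ± 0.54 did not pass (adjusted p of 0.385).

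No ligand among the 11 tested was called by limma, and 1, Inhba, had an unadjusted p under 0.05. Inhba encodes the subunit of activin A, the ligand that follistatin binds most tightly. Its signal was 505 and 185 in the non-pigmented line and 21.5 and 28 in the pigmented line. All of the pigmented signal was under the filter level, and the lines did not overlap. Inhba was therefore tested only because its non-pigmented signal lifted the mean over the filter, and its pigmented level cannot be told from background. Like Fst, it was not tested with the stricter filter. The fits that follow share this limit. The difference was -2.99 ± 0.58 and its adjusted p 0.0547, just outside the threshold. It was 0.0409 in the integrity-blocked fit and 0.0295 when the title date was the block. With pseudocounts of 1 and 64 it was -3.58 and -2.08. Inhba passed in 7 of 14 alternative fits, and without non-pigmented replicate 1 the adjusted p was 0.237. Its second probe set, from 9.56 to 15.0, was under the filter, and its lines overlapped. Inhbb, which encodes the subunit of activin B, read 186, 59.1, 226 and 114, and its lines overlapped.

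The 3 TGF-beta genes differed more between the integrity pairs than between the lines. Tgfb1 read 548, 148, 1221 and 252, with a difference of 0.92 ± 0.90 (adjusted p of 0.751). Tgfb3 read 537, 115, 259 and 92.1. In both genes the replicates 1 were above the replicates 2 in either line, and the lines overlapped. Tgfb2 read 53.3, 96.0, 40 and 136 in the probe set that passed the filter, with overlapping lines, whereas its 3 dimmer probe sets were higher on both pigmented arrays. The brightest of those had signals of 31.7, 32.0, 102 and 98.3 and a difference of 1.28. Tgfb2 was thus among the genes whose probe sets gave unlike answers, although all 4 had the same sign.

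Among the BMP and Gdf ligands, Bmp7 read 163, 126, 79.2 and 89.5, a difference of -0.67 ± 0.44, and Gdf2, also known as BMP9, read 158, 175, 299 and 219, a difference of 0.58 ± 0.42. Gdf3 read 72.3, 113, 122 and 163, a difference of 0.56 ± 0.46. In these 3 genes the lines did not overlap, but no adjusted p was under 0.594. For the remaining tested ligands (Gdf9, Gdf11, Bmp8a, Inhbb, Tgfb2 and Tgfb3) the difference was smaller than its SE, from -0.64 to 0.53. The 11 ligand genes that were not tested, Bmp2, Bmp4, Bmp5, Bmp6, Bmp8b, Bmp10, Bmp15, Gdf5, Gdf10, Inhbc and Inhbe, together with Nog and the receptor gene Bmpr1b, had signals from 2.35 to 146. Among these 13, both pigmented values were above both non-pigmented ones in 4 genes (30.8%), against 24.4% of all 5635 genes that were not tested. Bmp4 was one of them, with 25.1, 22.7, 63.1 and 44.0, as were Bmpr1b, Gdf10 and Inhbe. Without a detection call these signals could not be separated from background.

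No receptor gene among the 11 tested was called by limma, and 2 had an unadjusted p under 0.05, Tgfbr2 lower and Acvr2b higher in the pigmented line. Tgfbr2 encodes the type II receptor that binds TGF-beta. Its signal was 3646 and 5221 in the non-pigmented and 1689 and 1723 in the pigmented line, without overlap. The difference of -1.35 ± 0.40 (2.54-fold) did not pass (adjusted p of 0.184), but did in the integrity-blocked fit (0.0493). With the title date as the block it was 0.566, and without single arrays from 0.243 to 0.765. Both dimmer probe sets had the same sign (-0.87 and -1.73). Tgfbr1, its type I partner, read 1577, 1043, 1551 and 1869, and the lines overlapped. Tgfbr3, the co-receptor betaglycan, read 1295, 2911, 1319 and 1916, again with overlap. Its dimmer probe set, also above the filter, read 85.9, 104, 168 and 172, without overlap (a difference of 0.75).

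Acvr2b encodes a type II receptor for activins. Its signal was 36.2 and 203 in the non-pigmented and 319 and 1072 in the pigmented line. The lines did not overlap, but each spread widely, with replicate 2 above replicate 1 in both. The difference was 2.50 ± 0.86 and did not pass (adjusted p of 0.260). It was 2.68 and 2.32 within the integrity pairs, but 4.38 and 0.61 on the title dates. The adjusted p was 0.0203 in the integrity-blocked fit and 0.244 when the title date was the block. Without single arrays the difference ranged from 1.46 (without non-pigmented replicate 1, adjusted p of 0.704) to 3.53, and only leaving out pigmented replicate 1 gave a call (0.0348). Acvr2a, the other type II activin receptor gene, read 971, 1243, 856 and 1540 with overlapping lines. Its dimmer probe set, also above the filter, read 304, 349, 151 and 190, without overlap (a difference of -0.88).

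Neither tested gene with a Bmpr symbol differed by more than its SE in the probe set used. Bmpr2, a type II BMP receptor gene, read 3542, 4982, 3898 and 3943. Bmpr1a, a type I receptor gene, read 1888, 1639, 1510 and 1267. The lines overlapped in Bmpr2, and in Bmpr1a both pigmented values were the lower. With these and Tgfbr1, Tgfbr3, Acvr1, Acvr1b, Acvr1c, Acvrl1 and Acvr2a, there were 9 receptor genes other than Tgfbr2 and Acvr2b. In the probe sets used, the differences of these 9 lay between -0.34 and 0.40, each smaller than its SE.

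**Figure D3:**
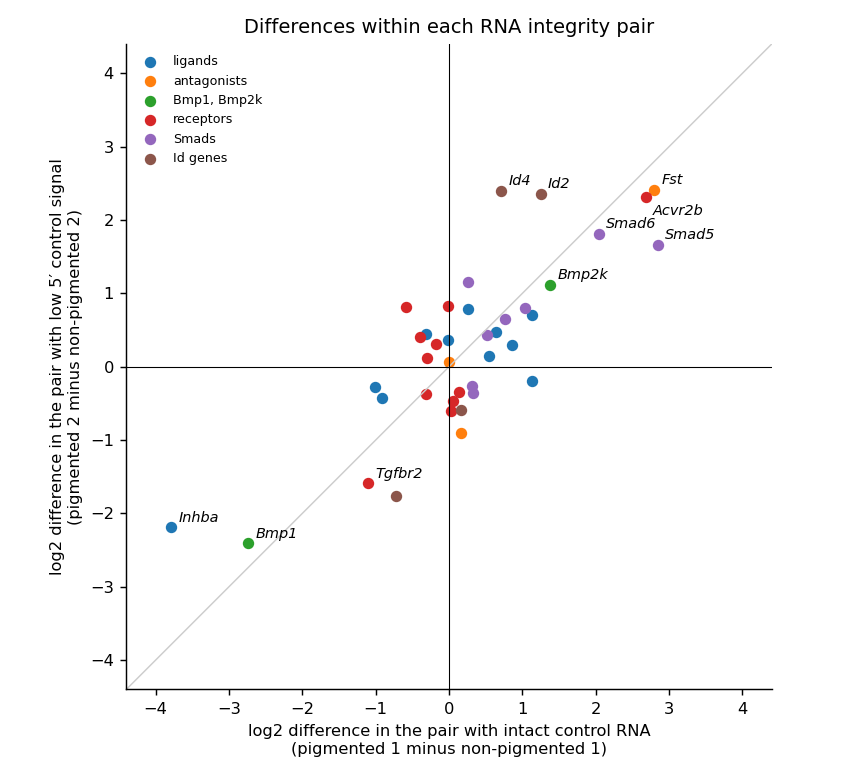
Log2 difference of the 39 tested genes within the pair of arrays with intact control RNA (x axis) and within the pair with low 5′ control signal (y axis), each point 1 gene, coloured by role, with the line of equal values in grey. Genes with an unadjusted p under 0.1 are named. Bmp1 (-2.74 and -2.41), Fst (2.80 and 2.41) and Acvr2b (2.68 and 2.32) lie near the grey line, and Id4 (0.71 and 2.40) lies off it.

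All 8 Smad genes were tested and none was called by limma, while 2 had an unadjusted p under 0.05, Smad5 and Smad6, both higher in the pigmented line. Smad5, which carries BMP signals, had signals of 353 and 572 in the non-pigmented and 2634 and 1838 in the pigmented line. The lines were far apart. The difference was 2.25 ± 0.47 (4.76-fold), and did not pass (adjusted p of 0.0697). The adjusted p was 0.0342 in the integrity-blocked fit and 0.151 when the title date was the block. Its other probe sets read 168, 159, 486 and 454 (a difference of 1.43) and 155, 147, 405 and 298 (1.12), so all 3 probe sets separated the lines. Its adjusted p was 0.0482 without pigmented replicate 2 and from 0.0961 to 0.340 without each of the other arrays.

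Smad6, an inhibitory Smad and itself a target of BMP signalling, read 261, 101, 1121 and 394. Both pigmented values were above both non-pigmented ones, with replicate 1 above replicate 2 in either line. The difference was 1.92 ± 0.68 and did not pass (adjusted p of 0.274). It was 2.04 in the intact pair and 1.81 in the other, but 0.56 and 3.28 on the title dates. The adjusted p was 0.0328 in the integrity-blocked fit and 0.366 when the title date was the block. Without single arrays the difference ranged from 1.19 to 2.66, with a call only without pigmented replicate 2 (0.0421) and adjusted p-values from 0.223 to 0.764 otherwise. Smad7, the other inhibitory Smad, read 892, 561, 1127 and 433. Its lines overlapped.

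The remaining Smad genes differed less. Smad1, which like Smad5 carries BMP signals, read 837, 1130, 1007 and 2522, a difference of 0.70 ± 0.56, and its lines overlapped. A dimmer probe set of Smad1 read 713, 805, 965 and 1505, without overlap (a difference of 0.66). The dimmest read 185, 89.5, 183 and 181, with overlap (0.44). Smad9, the third Smad that carries BMP signals, read 73.0, 46.2, 112 and 67.7, also with overlap. Smad3, which carries TGF-beta and activin signals, read 1904, 1936, 3230 and 3052. These lines were well separated with little spread, but the difference of 0.70 ± 0.38 had an adjusted p of 0.500, and its 2 dimmer probe sets had the opposite sign. Smad2, of the same kind as Smad3, read 768, 460, 953 and 378 with overlapping lines. Its other probe set, also above the filter, read 208, 417, 571 and 694, without overlap (a difference of 1.05). Smad4, the shared partner, read 1606, 5275, 3288 and 9225, a difference of 0.92 ± 0.73. In this probe set the replicates 2 were above the replicates 1 in either line. Its other probe sets read 2703, 4744, 3340 and 5000, with overlap (0.19), and 2164, 1173, 3368 and 3501, without overlap (1.10). Over the 8 Smad genes 7 differences were positive, with a median of 0.70, which was 0.75 after quantile normalization and 0.46 with arrays centred on their medians.

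The 4 Id genes went in different directions, none was called by limma, and 2 had an unadjusted p under 0.05, Id2 and Id4. Id2 read 1568 and 1573 in the non-pigmented and 3745 and 8136 in the pigmented line. The non-pigmented arrays were nearly equal, and both pigmented values were above them. The difference was 1.80 ± 0.48 (3.49-fold), and did not pass (adjusted p of 0.144). The adjusted p was 0.0437 in the integrity-blocked fit and 0.293 when the title date was the block. It was 0.0307 without pigmented replicate 1 and from 0.393 to 0.432 without each of the other arrays, where the difference was as low as 1.24. Its other probe sets had differences of 2.03 and 1.23, and in all 3 the lines did not overlap. Id4 read 254, 89.8, 425 and 541, a difference of 1.55 ± 0.56 (adjusted p of 0.288, or 0.147 in the integrity-blocked fit). Its other probe sets differed more, by 2.05 and 3.22, the latter with signals of 88.5, 39.7, 464 and 1044, and the lines did not overlap in any of the 3.

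Id1 and Id3 were not higher. Id1 read 1851, 901, 1117 and 252, a difference of -1.25 ± 0.77 (adjusted p of 0.573), with overlapping lines. Id3 read 2005, 3120, 2235 and 2064, also with overlap. The difference between Id2 or Id4 and Id1 or Id3 was not itself tested. The promoters of Id2 and Id4 shown above hold GGCGCC and that of Id3 does not, which describes 3 windows only. The tested genes of E proteins, the partners of Id proteins, Tcf3, Tcf4 and Tcf12, were not called by limma, none had an unadjusted p under 0.05, and their median difference was -0.40.

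**Figure D4:**
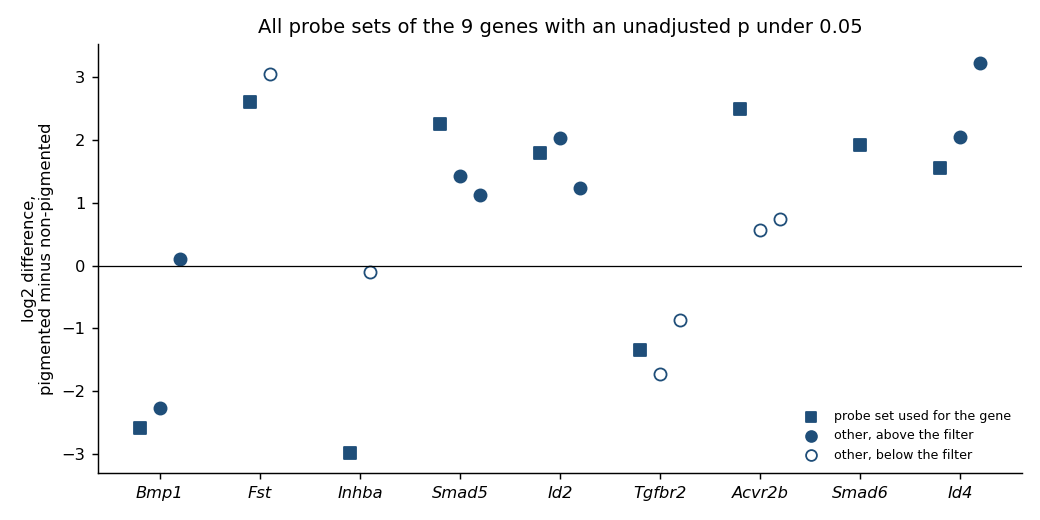
Log2 difference, pigmented minus non-pigmented, of every probe set of the 9 genes with an unadjusted p under 0.05. Squares are the probe set used for the gene, filled circles other probe sets above the filter and open circles those below it. All 3 probe sets of Smad5, Id2 and Id4 lie above 0, and those of Bmp1 lie at -2.58, -2.27 and 0.10.

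In the probe sets, 28 of the 39 tested genes were read more than once, and in 14 of these every probe set had the same sign. In the other 14 the signs differed, namely Bmp1, Bmp7, Gdf3, Tgfb1, Tgfbr1, Tgfbr3, Bmpr1a, Bmpr2, Acvr1, Acvr1b, Acvr1c, Acvr2a, Smad3 and Smad7. Among the 9 genes with an unadjusted p under 0.05, 8 had several probe sets, and signs differed only for Bmp1.

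Other genes of the pathway were taken from lists chosen with earlier results of these data known, so they are no independent evidence. Of 15 tested TGF-beta target genes, 1 fell, Fn1, none rose, and 14 did not pass. Fn1 encodes fibronectin of the matrix. It had signals of 17944, 16360, 4261 and 2187, a difference of -2.48 ± 0.41 and a limma adjusted p of 0.0331, which was 0.142 without non-pigmented replicate 1 and 0.115 without non-pigmented replicate 2. Of the 15, 8 had an unadjusted p under 0.05 and all 8 were lower, where 7.56% of all genes were lower at that level. In 11 of the 15 both pigmented values were below both non-pigmented ones, where 19.5% of all genes were. Il11 (212, 89.4, 43.6 and 38.7), among the 8 and the 11, was tested only because its non-pigmented signal lifted the mean over the filter. Tgfbi passed the filter only through its pigmented signal. In the integrity-blocked fit 7 were lower, against 4.32% of all genes. With the title date as the block only Fn1 passed (limma adjusted p of 0.0457), where 3.12% of all genes passed. The median difference was -1.10, and -1.17 and -1.34 under quantile normalization and median centring.

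**Figure D5:**
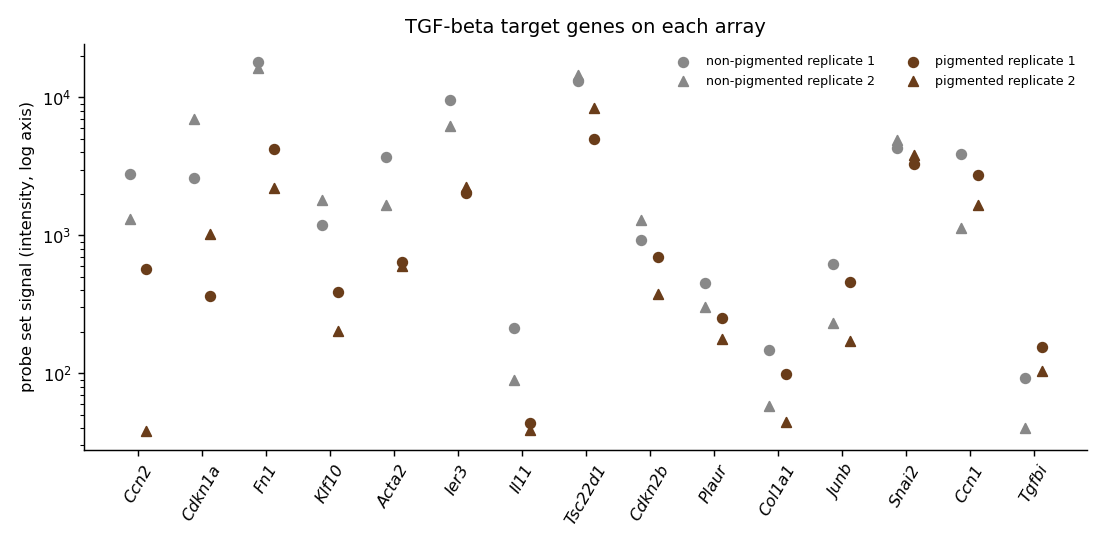
Signal (intensity, log axis) of the 15 tested TGF-beta target genes on each array, ordered by difference. Colours and shapes are grey for non-pigmented, brown for pigmented, circles for replicate 1 and triangles for replicate 2. In 11 genes both brown marks are below both grey marks, and Tgfbi is the 1 gene where both are above.

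Ier3, an early response gene, read 9651, 6156, 2027 and 2257 (-1.84 ± 0.39, adjusted p of 0.0747). Klf10, a transcription factor first described as induced by TGF-beta, read 1195, 1799, 387 and 203 (-2.32 ± 0.50, adjusted p of 0.0773). Cdkn1a, the cell cycle inhibitor p21, read 2612, 6936, 362 and 1016 (-2.78 ± 0.70, adjusted p of 0.118). In these 3 genes the lines did not overlap, and the integrity-blocked fit gave adjusted p-values of 0.0252, 0.0429 and 0.00785. With the title date as the block these were 0.212, 0.126 and 0.134. The list shares Acta2 with the muscle markers. The summed signal of those, given mostly by Mcam and Acta2, was also lower in the pigmented line.

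Of 9 tested extracellular regulators, Itgb8 fell, an integrin subunit gene whose product activates latent TGF-beta, and the other 8 did not pass. It read 803, 696, 68.6 and 67.1, a difference of -3.19 ± 0.41 (adjusted p of 0.0148), where the adjusted p was 0.0596 without non-pigmented replicate 1. Both pigmented signals of Itgb8 were just under the filter level, so the gene was tested only because its non-pigmented signal lifted the mean. Its pigmented level cannot be told from background, and the size of the difference varied with the pseudocount, from -3.44 with 1 to -2.62 with 64. Ltbp1, which encodes a protein that stores latent TGF-beta in the matrix, read 752, 488, 149 and 35.5, a difference of -2.75 ± 0.65 (adjusted p of 0.0971). Of 22 intracellular regulators Tob1 fell, an antiproliferative gene whose product can bind Smads, and 21 did not pass. It read 3090, 2917, 573 and 600, a difference of -2.32 ± 0.40 (adjusted p of 0.0378), but it was not called without non-pigmented replicate 1 (0.204), non-pigmented replicate 2 (0.192) or pigmented replicate 2 (0.0552), nor with the title date as a block (0.134). Only 1 of its 2 probe sets had this sign. With the mean of both the difference was -1.02 (adjusted p of 0.282), and with each probe set tested on its own the adjusted p was 0.0658. Ski, which represses Smad targets, read 2457, 1839, 1044 and 1013 (-1.04 ± 0.41, adjusted p of 0.346).

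None of the 6 tested co-receptors and decoy receptors and none of the 6 tested BMP target genes passed limma, with 1 gene of each list at an unadjusted p under 0.05. Bambi, a decoy receptor without a kinase, read 2123, 2103, 840 and 393 (-1.85 ± 0.50, adjusted p of 0.150). Klf4, a transcription factor, read 3003, 1850, 609 and 280 (-2.47 ± 0.54, adjusted p of 0.0825). In both the pigmented values were the lower, and both passed in the integrity-blocked fit (0.0485 and 0.0137) but not when the title date was the block (0.322 and 0.144). The BMP target list had a median of -0.40. Of the further ligands of the superfamily only Nodal was bright enough to be tested, and it was not called (adjusted over all genes, difference 0.61).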

How the data were processed

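RNA of 4 samples was measured on Affymetrix mouse arrays, 2 per line. The deposited values are linear probe set intensities, made by the authors with Affymetrix Expression Console, per the submitters' processing notes; the version and summary algorithm are not given in the sources used here. Within every deposited intensity column the mean after trimming 2% at either end was 500, which does not correct for RNA integrity. Control probe sets (64) and those with several symbols (932) or none (9160) were left out. Symbols came from the platform annotation, and 34741 of 34945 probe sets matched RefSeq by Entrez number.

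A pseudocount of 16 was added and log2 taken. The probe set with the highest mean stood for a gene, and genes under the 40th percentile of probe set means were not tested. Differences were fitted with limma 3.58.1 in R 4.3.3 (lmFit, eBayes with an intensity trend) over 12558 genes, with Benjamini-Hochberg adjustment over all of them, by code tested on simulated data. Quoted alternatives changed 1 choice at a time: normalization, filter, pseudocount, eBayes settings, probe set choice, the title date or the integrity pair (a Gapdh 3′ to 5′ ratio over 3) as a block, and each array left out, where the line left with a single array was taken to be as variable as the other. Figures used matplotlib 3.10.9.

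The genes, lists and alternatives were chosen with earlier results of these data known. Every tested gene of the set is named. Signals per array are printed for called genes, those with an unadjusted p under 0.05 or called with the integrity block, and the main Id, Smad, receptor and TGF-beta genes. Differences below their SE are given mostly as ranges. Of each pathway list the called genes and up to 4 with the smallest unadjusted p under 0.05 were named, and further names were chosen after their values were seen.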

Additional observations from a re-analysis of the deposited data

How the results depend on the processing

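Of the 39 tested genes, 18 had a difference of at least its SE, and 16 of these kept their sign in all of the 16 alternatives that tested them. Without single arrays Tgfb1 ranged from -0.18 (without pigmented replicate 1) to 2.02, and Smad3 to -0.20 with the mean of its probe sets. Of the 21 genes with a smaller difference, 18 changed sign in some alternative. The count of 2 called genes was 1 with no filter, with the filter at the 60th percentile, with a pseudocount of 1 and with the title date as a block, 0 with the mean of probe sets and with each probe set tested on its own, 8 in the integrity-blocked fit, and between 0 and 5 without single arrays (0 without non-pigmented replicate 1, 1 without non-pigmented replicate 2, 4 without pigmented replicate 1, 5 without pigmented replicate 2). Inhba was the gene called with the date as a block. With quantile normalization and with median centring the count stayed at 2, but the genes called were Bmp1 and Inhba. Fst was not called in either (limma adjusted p of 0.0619 and 0.0551). The 3 called genes of the pathway lists became 13 in the integrity-blocked fit and between 0 and 8 without single arrays, 0 without non-pigmented replicate 1, 1 without non-pigmented replicate 2 and 8 without pigmented replicate 1. Over all genes the 422 calls became 884 in the integrity-blocked fit, and 294, 234, 772 and 568 without non-pigmented replicates 1 and 2 and pigmented replicates 1 and 2. The cause of these shifts was not tested. Replicate numbers follow accession order and pair no arrays by design, although the integrity pairs, which were taken from the control ratios, fall on the same numbers. The smallest difference called over all genes was 1.90 without a block, and it depends on the SE of each gene: the integrity-blocked fit called Tgfbr2 at -1.35.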
